A study of Mus musculus with 12 samples.

Results

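MHC class II presentation was followed in mouse splenic B cells through 10 genes: the chain genes H2-Aa, H2-Ab1 and H2-Eb1, the invariant chain gene Cd74, the peptide exchange genes H2-DMa, H2-DMb1 and H2-DMb2, the inhibitor genes H2-Oa and H2-Ob, and the transactivator gene Ciita. Every probe set that the array annotation assigns to one of these symbols was taken, alone or with further symbols, and each was kept apart. A probe set is a group of short oligonucleotides whose brightness is summarised into 1 value. These were 22 of the 45037 probe sets tested. H2-Aa had 4 of them, H2-Ab1 3, H2-Eb1 1, H2-DMa 2, H2-Oa 1, Cd74 1 and Ciita 3. H2-DMb2 had 3 of its own and shared 2 with H2-DMb1, which had none of its own. H2-Ob had 1 of its own and 1 shared with the overlapping long non-coding RNA Gm20506.

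The arrays compared B cells of mice carrying a DREAM transgene with those of wild type mice, and stimulated with unstimulated cells. DREAM, the product of Kcnip3, is a calcium-binding protein that acts as a transcriptional repressor. The 4 groups were transgenic cells kept for 2 days with lipopolysaccharide (LPS, 20 µg/ml) and interleukin 4 (IL-4, 10 ng/ml), wild type cells stimulated in the same way, unstimulated transgenic cells and unstimulated wild type cells, with 3 arrays of independent biological replicates in each. Resting B cells had been enriched by removing cells that carry CD43, to a stated purity above 98%. The transgene is labelled EFLmDREAM, and its driving promoter, the strain and the age of the mice are not given in the sources used here.

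Class II molecules are pairs of an alpha and a beta chain that carry peptides from endosomes to the surface of antigen-presenting cells, where CD4+ T cells read them. The invariant chain encoded by Cd74 fills the peptide groove during assembly, proteases trim it away, and H2-DM, a pair of H2-DMa with an H2-DMb chain, exchanges the remaining fragment for peptide. H2-O, the pair of H2-Oa and H2-Ob made mainly in B cells and in some thymic and dendritic cells, restrains H2-DM. CIITA, the product of Ciita, binds no DNA itself but is recruited to class II promoters by factors on the X box (RFX and CREB) and the Y box (NF-Y). B cells express all of these genes at rest, and IL-4 is known to raise class II protein on the surface of mouse B cells.

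The promoter stretches that hold these boxes are shown because most of the genes changed together after stimulation. RefSeq promoters of the GRCm38.p6 build, which run from 250 bases before to 50 bases after a start site, were given for 7 of the 10 genes, with 2 starts for H2-DMa. H2-Ab1, Cd74 and Ciita had no entry in that table. Both strands were searched for the Y box letters TGATTGG, for the X box letters AAC and ATGATG with any 2 bases between them, and for GCAAC, which overlaps the X box letters of H2-Eb1. The letters were chosen after the sequences had been seen. Each stretch is given 5′ to 3′ on the strand of its gene, over 82 bases, with the Y box and any X box or GCAAC match in capitals.
H2-Aa (chr17:34287857-34287938, minus strand): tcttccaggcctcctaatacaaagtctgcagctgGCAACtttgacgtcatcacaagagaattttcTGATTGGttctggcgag
H2-Eb1 (chr17:34305741-34305822, plus strand): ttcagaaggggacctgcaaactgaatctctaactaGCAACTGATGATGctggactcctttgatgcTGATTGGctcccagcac
H2-DMb1 (chr17:34153063-34153144, plus strand): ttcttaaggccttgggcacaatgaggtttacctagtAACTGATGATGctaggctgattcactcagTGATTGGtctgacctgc
H2-DMb2 (chr17:34145092-34145173, plus strand): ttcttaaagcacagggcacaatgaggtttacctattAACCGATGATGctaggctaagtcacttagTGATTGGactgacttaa
H2-Oa (chr17:34092269-34092350, plus strand): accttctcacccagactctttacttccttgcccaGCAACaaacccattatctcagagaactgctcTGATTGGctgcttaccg
H2-Ob (chr17:34238781-34238862, plus strand): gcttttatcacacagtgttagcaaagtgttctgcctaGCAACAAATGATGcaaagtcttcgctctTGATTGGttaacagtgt

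The Y box letters stood in 6 of the 7 genes, all on the coding strand, and began 50 bases before the start site in H2-Aa, 61 in H2-Eb1, 63 in H2-DMb1, 92 in H2-DMb2, 45 in H2-Oa and 59 in H2-Ob. Neither H2-DMa promoter held them. The X box letters stood in 4 genes and began 28 bases before the Y box in H2-Eb1, 29 in H2-DMb1 and in H2-DMb2, and 26 in H2-Ob. H2-Aa and H2-Oa held GCAAC at a similar place without the rest of the X box letters, and in H2-Eb1 and H2-Ob the GCAAC match overlapped the X box match. Of all 32851 promoters listed, 7.82% held the Y box letters, 0.137% the X box letters, 35.2% GCAAC, and 0.0274% (9 promoters) both boxes. These shares include the members' own promoters, and the 4 genes with both boxes are among the 9. Because the letters were chosen after the sequences had been seen, the shares are not a test. Of 7 other genes of the same region with a promoter entry, 3 (Psmb9, Tap1 and H2-Eb2) held a Y box match and 0 an X box match, and H2-Eb2 also held GCAAC upstream of its Y box match. These matches are descriptions of letters, not evidence of binding.

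**Figure D1:**
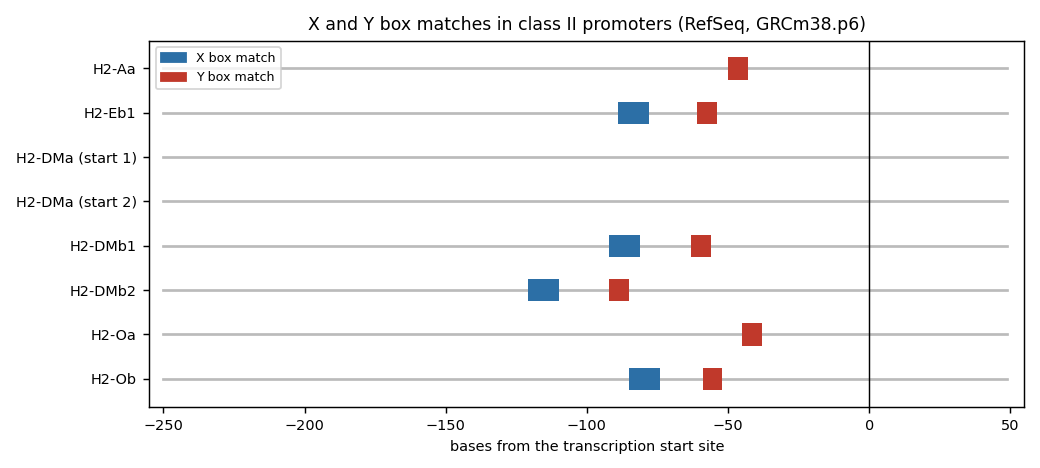
Position of X box (blue) and Y box (red) letter matches in the RefSeq promoters of 7 class II genes, in bases from the transcription start site on the horizontal axis, with the 2 H2-DMa promoters drawn apart. The X box match lies upstream of the Y box match in all 4 genes that hold both, by 26 to 29 bases.

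Values are log2 probe set summaries as the authors deposited them. Array medians ran from 5.36 to 5.41 in the 6 stimulated arrays and from 5.97 to 6.05 in the 6 unstimulated ones, so changes with stimulation were tested on values quantile-normalized over the 12 arrays, and genotype differences on the deposited values. All 8 measured B cell markers lay above the array median in every group. Neither of the 2 probe sets of Kcnip3 passed between the genotypes. At 1418544_at transgenic minus wild type was 0.03 ± 0.12 in stimulated and 0.23 ± 0.12 in unstimulated cells (SE, limma, adjusted p = 0.976 and 0.279). No source used here says whether these probe sets lie within the transgene, and they do not check the labels. The actin control probe sets, read as the 5′ end minus the 3′ end, gave −2.22 in unstimulated wild type replicate 1 and −0.67 to −0.54 in the other unstimulated arrays. In the stimulated arrays they ran from −1.36 in wild type replicate 1 to −0.43 in transgenic replicate 3.

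**Figure D2:**
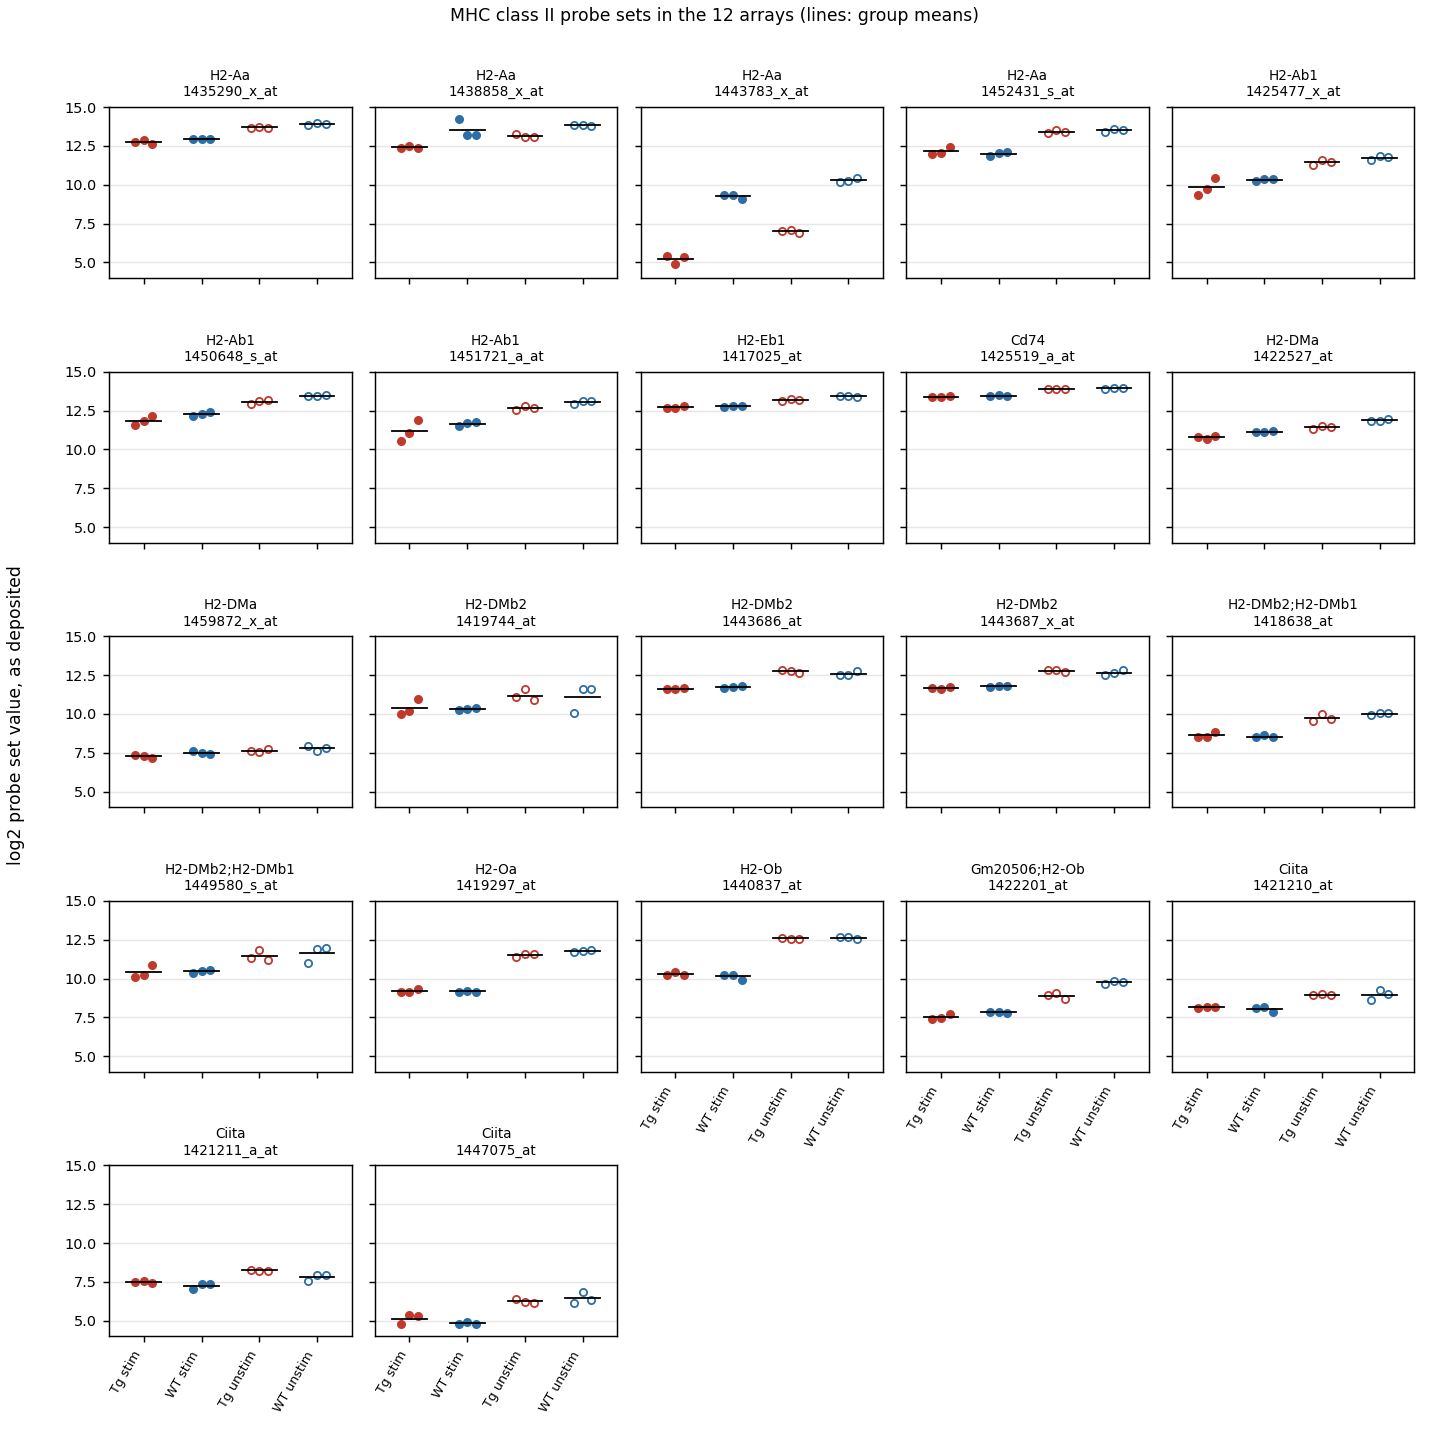
Deposited log2 value of each of the 22 probe sets (1 panel each, named by gene and probe set) in the 12 arrays, with red for transgenic, blue for wild type, filled circles for stimulated, open circles for unstimulated cells and a line at each group mean. H2-Oa and H2-Ob 1440837_at are lower in stimulated cells of both genotypes by over 2 units, and at H2-Aa 1443783_x_at the transgenic arrays lie 3 to 4 units under the wild type arrays of the same state.

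Class II transcripts fell after 2 days of LPS and IL-4 in both genotypes. In transgenic cells 21 of the 22 probe sets fell and 0 rose, where 25.1% of all probe sets fell and 30.1% rose (limma, adjusted p under 0.05 over all probe sets). In wild type cells 19 fell and 0 rose, where 26.1% of all probe sets fell and 30.7% rose. The median change of the 22 was −1.14 on the log2 scale in transgenic and −1.07 in wild type cells, beside 0.04 in each genotype over all probe sets. All 6 stimulated arrays lay below all 6 unstimulated ones at 17 of the 22, as at 20.1% of all probe sets. In bulk RNA, fewer cells of a type and less RNA per cell cannot be told apart.

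The scaling between the states sets part of these sizes. The median change of all probe sets was −0.40 in both genotypes on the deposited values, and 0.24 in transgenic and 0.22 in wild type cells with each array's median subtracted. The median of the 22 was −1.12 in transgenic and −0.99 in wild type cells on the deposited values, and −0.48 in transgenic and −0.38 in wild type cells after median subtraction. Over all probe sets the share that fell was 64.9% in transgenic and 64.8% in wild type cells on the deposited values, where 13.7% rose in transgenic and 14.1% in wild type cells. After median subtraction 18% fell and 49.3% rose in transgenic cells, and 19.5% fell and 47.5% rose in wild type cells. Under all 3 scalings 13 of the 22 fell in transgenic and 14 in wild type cells. The fall was lost after median subtraction in both genotypes at Cd74, H2-Eb1, H2-DMa 1422527_at, H2-DMb2 1419744_at and the shared H2-DMb 1449580_s_at, and in transgenic cells also at H2-Aa 1438858_x_at and at 2 Ciita probe sets.

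**Figure D3:**
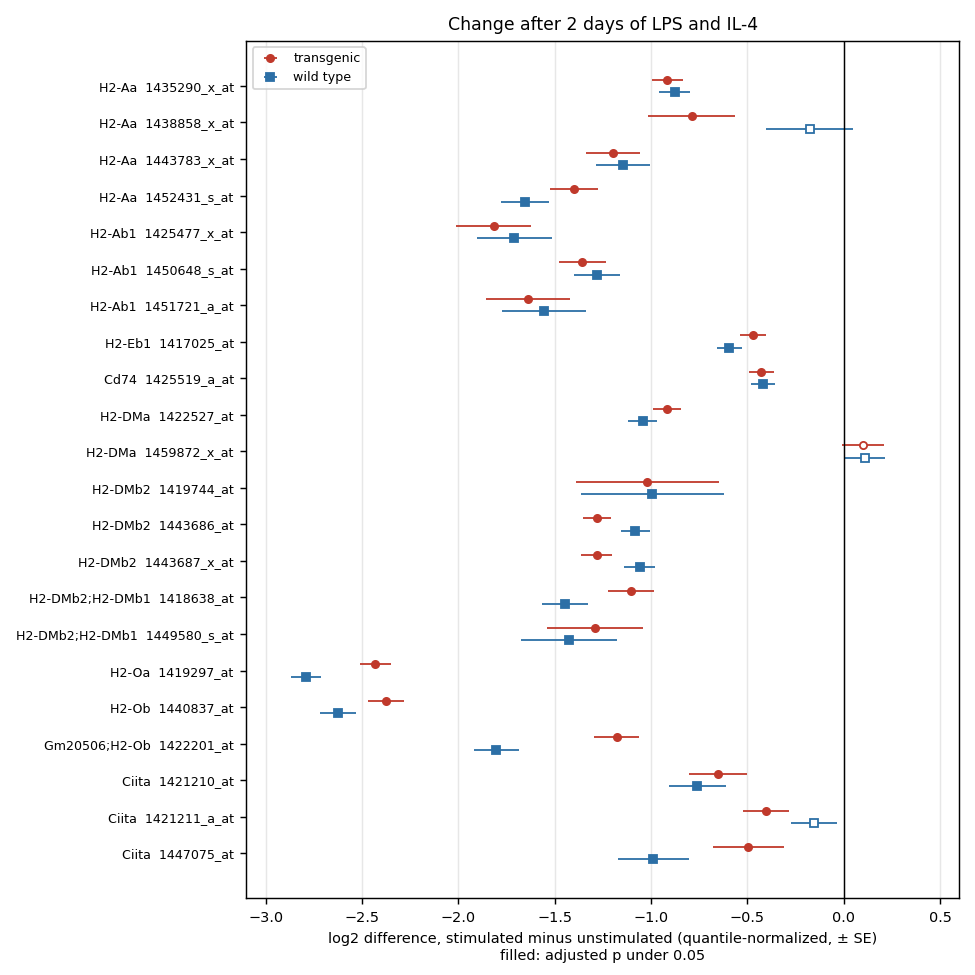
Change after stimulation, stimulated minus unstimulated on the quantile-normalized log2 scale with its SE, for each of the 22 probe sets in transgenic (red circles) and wild type cells (blue squares), filled where adjusted p was under 0.05. H2-Oa and H2-Ob 1440837_at lie farthest left at −2.37 to −2.79, and Cd74 and H2-Eb1 lie nearest to 0 among the chain and invariant chain probe sets that fell in both genotypes.

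Among the chain genes, H2-Ab1, the beta chain of the A molecule, fell at all 3 of its probe sets, by 1.36 to 1.82 on the log2 scale in transgenic and by 1.28 to 1.71 in wild type cells. At 1450648_s_at the quantile-normalized values were 11.45, 11.68 and 11.96 in stimulated and 12.98, 13.05 and 13.13 in unstimulated transgenic cells. The same probe set gave 11.95, 12.18 and 12.32 in stimulated and 13.43, 13.42 and 13.44 in unstimulated wild type cells. The states did not overlap in either genotype, and the change was −1.36 ± 0.12 in transgenic (SE, n = 3 arrays a group, adjusted p = 6.66e-07) and −1.28 ± 0.12 in wild type cells (adjusted p = 1.07e-06).

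H2-Aa, the alpha chain of A, fell at 4 of 4 probe sets in transgenic and at 3 of 4 in wild type cells, and its probe sets gave different sizes. The change was −1.40 ± 0.12 in transgenic and −1.66 ± 0.12 in wild type cells at 1452431_s_at, and −1.20 ± 0.14 in transgenic and −1.14 ± 0.14 in wild type cells at 1443783_x_at. At 1435290_x_at it was −0.92 ± 0.08 in transgenic and −0.88 ± 0.08 in wild type cells. In transgenic cells 1443783_x_at lay at percentile 46.2 of all probe sets when stimulated and 66.9 when not. At 1438858_x_at the change was −0.79 ± 0.23 in transgenic cells (adjusted p = 0.0094), and −0.18 ± 0.23 in wild type cells did not pass (adjusted p = 0.528). Stimulated wild type replicate 1 stood apart at that probe set, with 14.35 against 13.24 and 13.22 in replicates 2 and 3, and the unstimulated wild type arrays had 13.78, 13.82 and 13.74. Without that array the wild type change was −0.55 with an adjusted p of 0.000482, so 1 array decided that call.

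H2-Eb1, the beta chain of the E molecule, fell less. Its values were 12.67, 12.67 and 12.77 in stimulated and 13.12, 13.20 and 13.20 in unstimulated transgenic cells, and 12.74, 12.78 and 12.84 in stimulated and 13.41, 13.37 and 13.36 in unstimulated wild type cells. The change was −0.47 ± 0.07 in transgenic and −0.59 ± 0.07 in wild type cells (adjusted p = 4.83e-05 and 5.58e-06), with no overlap of the states. After median subtraction it turned to 0.16 in transgenic cells, which did not pass (adjusted p = 0.0593), and was −0.01 in wild type cells.

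Cd74, whose product chaperones new class II chains, was among the smallest changes. It lay near the top of the scale, at percentile 99.8 to 99.9 of all probe sets, and H2-Eb1 at 99.5 to 99.7. H2-Aa 1435290_x_at, which fell more, lay at 99.5 to 99.9. The highest deposited value of an array was 14.37 to 14.53 in stimulated and 14.46 to 14.66 in unstimulated cells. Whether the top of the scale limits the changes of Cd74 and H2-Eb1 was not tested. The values of Cd74 follow. It read 13.41, 13.40 and 13.45 in stimulated and 13.87, 13.85 and 13.83 in unstimulated transgenic cells. In wild type cells it read 13.42, 13.52 and 13.47 when stimulated and 13.85, 13.89 and 13.92 when not. The states were separate by a narrow gap, at −0.43 ± 0.06 in transgenic and −0.42 ± 0.06 in wild type cells (adjusted p = 7.08e-05 and 8.20e-05), and after median subtraction the sign turned, to 0.15 in transgenic and 0.13 in wild type cells, neither of which passed (adjusted p = 0.0643 and 0.113).

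The peptide exchange genes fell at most probe sets. H2-DMa fell by 0.92 on the log2 scale in transgenic and by 1.04 in wild type cells at 1422527_at, and at 1459872_x_at the changes were 0.10 ± 0.11 in transgenic and 0.11 ± 0.11 in wild type cells, which did not pass (adjusted p = 0.456 and 0.412). There the sign turned on the deposited values, to −0.36 in transgenic and −0.29 in wild type cells, both of which passed, and after median subtraction they were 0.28 in transgenic and 0.33 in wild type cells and passed as higher. H2-DMb2 fell at 1443686_at by 1.28 in transgenic and by 1.08 in wild type cells, with values of 11.45, 11.44 and 11.50 in stimulated and 12.79, 12.78 and 12.66 in unstimulated transgenic cells. Its 1443687_x_at gave −1.28 in transgenic and −1.06 in wild type cells. These 2 probe sets varied little between arrays of a group. The third, 1419744_at, fell by 1.02 in transgenic and by 0.99 in wild type cells with an SE of 0.37 (adjusted p = 0.0328 and 0.0357), and its call held in 6 of 12 alternatives in transgenic and in 4 of 12 in wild type cells. It was lost on the deposited values and after median subtraction in both genotypes, without replicate 1 or 2 of either state in transgenic cells, and in wild type cells without any stimulated array or unstimulated replicate 2 or 3 and with only the 6 arrays compared (changes of −0.13 to −1.26 in transgenic and −0.15 to −1.56 in wild type cells over all alternatives). The probe sets shared by H2-DMb1 and H2-DMb2, whose transcripts cannot be told apart, fell by 1.10 in transgenic and by 1.45 in wild type cells at 1418638_at, and by 1.29 in transgenic and by 1.43 in wild type cells at 1449580_s_at.

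The H2-O genes fell most. H2-Oa read 9.18, 9.16 and 9.35 in stimulated and 11.54, 11.73 and 11.72 in unstimulated transgenic cells, and 9.15, 9.19 and 9.12 in stimulated and 11.89, 11.96 and 11.99 in unstimulated wild type cells. The stimulated arrays of both genotypes lay together and more than 2 units under the unstimulated ones, with changes of −2.43 ± 0.08 in transgenic and −2.79 ± 0.08 in wild type cells, 5.39-fold lower in transgenic and 6.92-fold lower in wild type cells (adjusted p = 7.81e-11 and 2.12e-11). H2-Ob at 1440837_at read 10.18, 10.31 and 10.16 in stimulated and 12.65, 12.55 and 12.57 in unstimulated transgenic cells. In wild type cells it read 10.16, 10.14 and 9.83 when stimulated and 12.72, 12.68 and 12.61 when not. Its changes were −2.37 ± 0.09 in transgenic and −2.62 ± 0.09 in wild type cells (adjusted p = 3.18e-10 and 1.11e-10). H2-Oa and then H2-Ob had the largest falls of the 22 in both genotypes under all 3 scalings, and 1422201_at, shared by H2-Ob and Gm20506, fell by 1.18 in transgenic and by 1.80 in wild type cells.

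Ciita, the transactivator, fell by smaller steps that differed between its probe sets. At 1421210_at it read 8.25, 8.29 and 8.31 in stimulated and 8.90, 8.97 and 8.93 in unstimulated transgenic cells. In wild type cells that probe set read 8.19, 8.29 and 7.98 when stimulated and 8.49, 9.23 and 9.02 when not, so replicate 1 of the unstimulated cells lay nearest to the stimulated arrays. The change was −0.65 ± 0.15 in transgenic and −0.76 ± 0.15 in wild type cells (adjusted p = 0.00217 and 0.000685). At 1421211_a_at it was −0.40 ± 0.12 in transgenic cells, which passed (adjusted p = 0.0108), and −0.16 ± 0.12 in wild type cells, which did not (adjusted p = 0.283) and turned to 0.05 after median subtraction. On the deposited values the wild type change there was −0.57 and passed (adjusted p = 0.000449). The probe set 1447075_at lay lower, at percentile 44.8 of all probe sets in stimulated transgenic and 38.6 in stimulated wild type cells. Its percentile in unstimulated cells was 54.5 in transgenic and 58.2 in wild type cells. Its change was −0.50 ± 0.19 in transgenic and −0.99 ± 0.19 in wild type cells, both of which passed (adjusted p = 0.0370 and 0.000498). In transgenic cells that call held in 8 of 11 alternatives and was lost without unstimulated replicate 1 or 2 or stimulated replicate 1, with a change of −0.30 without the last.

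Other genes of the pathway moved in part with the members. Of 11 genes of assembly and peptide loading, 9 fell and 0 rose in transgenic cells, and 8 fell and 1 rose in wild type cells. Over all probe sets 25.1% fell in transgenic and 26.1% in wild type cells. Marchf1, a ubiquitin ligase that removes class II from the surface, fell by 2.76 on the log2 scale in transgenic and by 2.77 in wild type cells. Cst3, a cathepsin inhibitor, fell by 2.70 in transgenic and by 1.86 in wild type cells, and cathepsin B (Ctsb) fell by 1.69 in transgenic and fell by 0.99 in wild type cells. Ctss, the cathepsin that trims the invariant chain in B cells, fell by 1.25 in transgenic and by 1.19 in wild type cells. Cd83, which opposes Marchf1, fell by 0.52 in transgenic and by 0.21 in wild type cells. Marchf8, a relative of Marchf1, had 0.12 in transgenic cells, which did not pass (adjusted p = 0.283), and rose by 0.49 in wild type cells. It lay low on the arrays, at percentile 19.4 of all probe sets in stimulated transgenic and 17.3 in stimulated wild type cells. On the deposited values Marchf8 had −0.32 in transgenic cells, which passed as lower, and 0.11 in wild type cells, which did not pass (adjusted p = 0.257). After median subtraction it rose in both genotypes, by 0.32 in transgenic and 0.73 in wild type cells. The counts moved with the scaling: after median subtraction 6 of the 11 fell and 4 rose in transgenic cells, and 6 fell and 3 rose in wild type cells, and Cd83 turned to 0.27 in transgenic and 0.56 in wild type cells, both of which passed.

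Of 16 genes listed for class II transcription, 6 fell and 5 rose in transgenic cells, and 8 fell and 3 rose in wild type cells. Of all probe sets 25.1% fell and 30.1% rose in transgenic cells, and 26.1% fell and 30.7% rose in wild type cells. Rfx5, a subunit of the factor on the X box, fell by 1.06 in transgenic and by 1.16 in wild type cells, and Bcl6, a repressor that germinal centre B cells need, fell by 2.83 in transgenic and fell by 2.95 in wild type cells. Stat6, which carries the IL-4 signal, fell by 1.14 in transgenic and by 0.98 in wild type cells, and Irf4 fell by 1.12 in transgenic and fell by 1.23 in wild type cells. After median subtraction Irf4 had −0.23 in transgenic cells, which did not pass (adjusted p = 0.0785), and −0.37 in wild type cells, which passed. Prdm1, the plasma cell repressor known to silence Ciita, rose by 2.03 ± 0.15 in transgenic and by 1.53 ± 0.15 in wild type cells. Among the subunits of NF-Y, Nfyb rose by 0.58 in transgenic and by 0.71 in wild type cells. Nfya rose by 0.40 in transgenic cells and had 0.21 in wild type cells, which did not pass. Nfyc had −0.13 in transgenic and −0.15 in wild type cells, which did not pass (adjusted p = 0.238 and 0.182). After median subtraction Nfya, Nfyb and Nfyc each rose and passed in both genotypes. Their changes were then 0.86, 0.84 and 0.56 in transgenic and 0.69, 1.01 and 0.53 in wild type cells. On the deposited values the Nfyb change of 0.20 in transgenic cells did not pass (adjusted p = 0.140). After median subtraction 4 of the 16 fell and 7 rose in transgenic cells, and 5 fell and 7 rose in wild type cells. Of all probe sets 49.3% then rose in transgenic and 47.5% in wild type cells. On the deposited values 9 fell and 3 rose in transgenic and 9 fell and 2 rose in wild type cells. There 64.9% of all probe sets fell in transgenic and 64.8% in wild type cells, so these counts are not read as particular to the list.

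Genes that lie between the members on chromosome 17 rose in part. In the RefSeq order of GRCm38.p6, Psmb9, Tap1, Psmb8 and Tap2, which make and carry peptides for class I, stand between H2-DMb1 and H2-Ob. Psmb9 rose by 1.13 in transgenic and by 0.94 in wild type cells, Tap1 by 0.73 in transgenic and 0.44 in wild type cells, and Psmb8 by 0.57 in transgenic and 0.38 in wild type cells. Tap2 rose by 0.26 in transgenic cells and had −0.07 in wild type cells, which did not pass. On the deposited values Tap2 passed in neither genotype. Brd2, between H2-Oa and H2-DMa, had −0.40 in transgenic cells, which did not pass, and fell by 0.67 in wild type cells. After median subtraction Tap2 rose in both genotypes and Brd2 passed in neither. H2-Eb2, a second E beta gene beside H2-Eb1, fell by 1.12 in transgenic and by 1.31 in wild type cells. H2-Ea, the E alpha gene, listed by RefSeq as a transcribed pseudogene, fell at 1422891_at by 0.68 in transgenic and by 0.64 in wild type cells, and its other 2 probe sets did not pass. After median subtraction 1422891_at had −0.0067 in transgenic and −0.16 in wild type cells, which did not pass (adjusted p = 0.974 and 0.398). Of the 9 genes listed for the region, 5 rose and 2 fell in transgenic cells, and 4 rose and 3 fell in wild type cells. The share of all probe sets that rose was 30.1% in transgenic and 30.7% in wild type cells. On the deposited values 4 rose and 2 fell in transgenic cells and 3 rose and 4 fell in wild type cells, and after median subtraction 6 rose and 1 fell in each genotype. After median subtraction 49.3% of all probe sets rose in transgenic and 47.5% in wild type cells. The B cell markers fell with the members: 7 of 8 fell in each genotype, with a median of −1.07 in transgenic and −1.04 in wild type cells and a mean log2 level over the list (as deposited) of 10.67 to 10.73 in stimulated and 11.83 to 11.88 in unstimulated transgenic arrays, and of 10.51 to 10.67 in stimulated and 11.74 to 11.92 in unstimulated wild type arrays. After median subtraction 4 of the 8 fell and 1 rose in each genotype, the riser being Blnk, an adaptor of B cell receptor signalling, at 0.57 in transgenic and 0.62 in wild type cells. Their part in the members' fall was not tested.

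Between the genotypes few class II probe sets differed, and 1 of H2-Aa differed widely. In stimulated cells 3 of the 22 were lower and 0 higher in transgenic than in wild type cells, where 0.995% of all probe sets were lower and 0.868% higher. In unstimulated cells 3 were lower and 1 higher, where 4.98% of all probe sets were lower and 4.47% higher. At an unadjusted p under 0.05 the numbers were 8 of 22 in stimulated and 10 of 22 in unstimulated cells (limma), where 11.1% of all probe sets reached it in stimulated and 24.1% in unstimulated cells. The genotypes did not overlap at 9 of the 22 in stimulated and at 10 in unstimulated cells, where 19% of all probe sets did not overlap in stimulated and 24.3% in unstimulated cells. The median difference of the 22 was −0.09 in stimulated and −0.20 in unstimulated cells, beside 0.01 in each state over all probe sets.

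**Figure D4:**
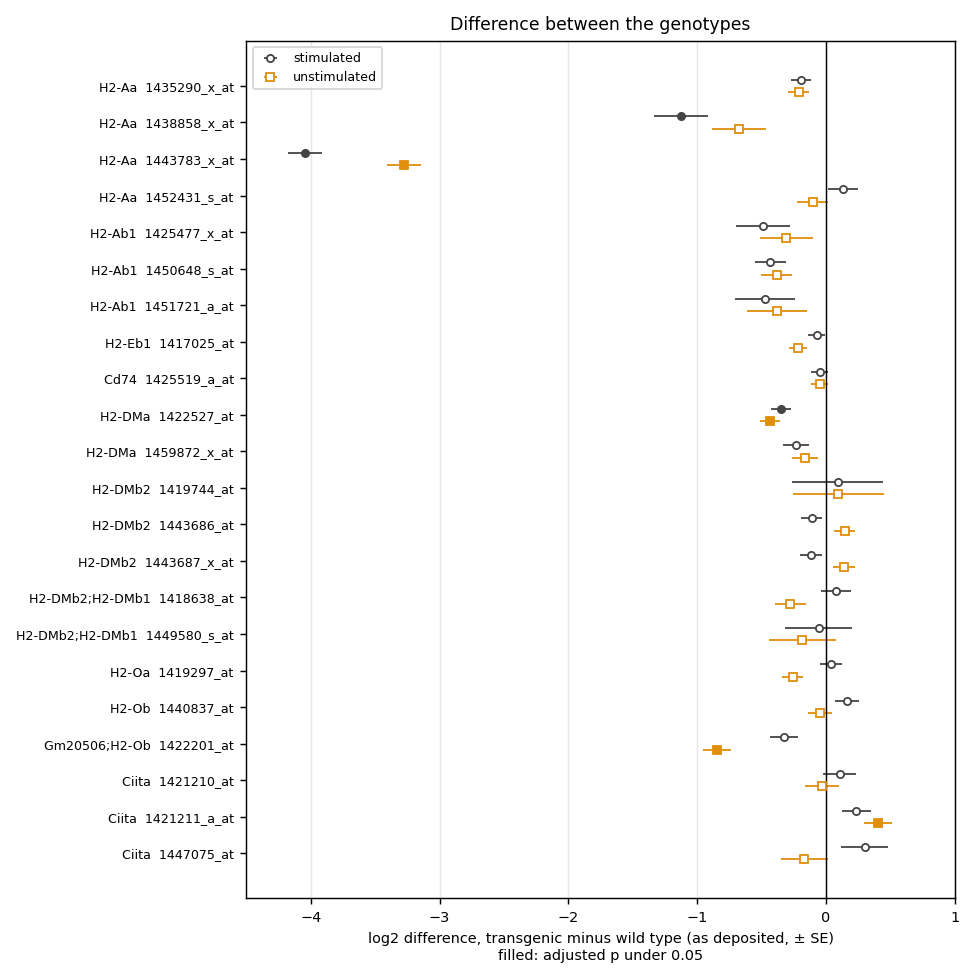
Difference between the genotypes, transgenic minus wild type on the deposited log2 scale with its SE, for each of the 22 probe sets in stimulated (grey circles) and unstimulated cells (orange squares), filled where adjusted p was under 0.05. H2-Aa 1443783_x_at lies alone at −4.05 in stimulated and −3.28 in unstimulated cells, and the other 21 probe sets lie between −1.13 and 0.40.

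H2-Aa 1443783_x_at read 5.39, 4.89 and 5.34 in stimulated transgenic cells, against 9.34, 9.34 and 9.08 in stimulated wild type cells. In unstimulated cells it read 7.05, 7.12 and 6.87 in transgenic, against 10.17, 10.27 and 10.43 in wild type cells. The genotypes were far apart in both states, by −4.05 ± 0.13 in stimulated cells, 16.5-fold (adjusted p = 1.40e-09), and by −3.28 ± 0.13 in unstimulated cells, 9.69-fold (adjusted p = 9.81e-09), and the call held in all 12 alternatives in each state. The other H2-Aa probe sets did not show this size. At 1452431_s_at the difference was 0.13 ± 0.12 in stimulated and −0.10 ± 0.12 in unstimulated cells, which did not pass (adjusted p = 0.806 and 0.655). At 1435290_x_at it was −0.20 ± 0.08 in stimulated and −0.21 ± 0.08 in unstimulated cells, which did not pass either (adjusted p = 0.339 and 0.115). What makes 1 probe set of H2-Aa differ from the rest was not tested.

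H2-Aa 1438858_x_at stood between these. It read 12.40, 12.48 and 12.39 in stimulated transgenic and 14.24, 13.22 and 13.19 in stimulated wild type cells, with no overlap, and the difference was −1.13 ± 0.21 (adjusted p = 0.0132). Wild type replicate 1 stood apart at 14.24, and over the 12 alternatives the difference ran from −1.31 to −0.78. The call was lost without transgenic replicate 1 or 3 (highest adjusted p over the alternatives 0.0684) and when only these 6 arrays were fitted. In unstimulated cells it read 13.30, 13.05 and 13.09 in transgenic and 13.82, 13.85 and 13.79 in wild type cells, again with no overlap, and −0.67 ± 0.21 did not pass (adjusted p = 0.0621).

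H2-Ab1 had differences of −0.43 to −0.49 on the log2 scale in stimulated and of −0.31 to −0.38 in unstimulated cells, and none of these passed. At 1450648_s_at the arrays read 11.60, 11.82 and 12.13 in stimulated transgenic and 12.13, 12.31 and 12.41 in stimulated wild type cells, and the highest transgenic array met the lowest wild type one. That array, transgenic replicate 3, lay above the mean of replicates 1 and 2 by 1.05 at 1451721_a_at and by 0.91 at 1425477_x_at. Without it all 3 probe sets passed, with a difference of −0.79 at 1425477_x_at, −0.57 at 1450648_s_at and −0.82 at 1451721_a_at (adjusted p = 0.0176, 0.0200 and 0.0171). In the fit with the replicate number as a block, 1450648_s_at passed in stimulated cells (adjusted p = 0.0371).

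H2-DMa 1422527_at was lower in transgenic cells in both states. It read 10.82, 10.68 and 10.86 in stimulated transgenic and 11.09, 11.11 and 11.21 in stimulated wild type cells, and 11.33, 11.49 and 11.47 in unstimulated transgenic and 11.82, 11.84 and 11.94 in unstimulated wild type cells. The genotypes did not overlap in either state. The difference was −0.35 ± 0.08 in stimulated cells (adjusted p = 0.0423), a call that held in 4 of 12 alternatives and was lost without any 1 of the 6 arrays, and −0.44 ± 0.08 in unstimulated cells (adjusted p = 0.00422), a call that held in all 12. The other H2-DMa probe set had −0.23 ± 0.10 in stimulated and −0.16 ± 0.10 in unstimulated cells, which did not pass.

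The remaining calls were in unstimulated cells. The probe set shared by H2-Ob and Gm20506 read 8.96, 9.06 and 8.70 in transgenic and 9.62, 9.85 and 9.79 in wild type cells, and was lower in transgenic cells, with a log2 difference of −0.85 ± 0.11 (adjusted p = 0.000405). H2-Ob's own probe set differed by −0.05 ± 0.09 in the same cells, which did not pass (adjusted p = 0.82), so the shared probe set does not speak for H2-Ob alone. Ciita 1421211_a_at read 8.29, 8.22 and 8.20 in transgenic and 7.58, 7.96 and 7.96 in wild type cells and was higher in transgenic cells by 0.40 ± 0.11 (adjusted p = 0.0389). Without wild type replicate 1, the array with the low actin 5′ reading, the difference was 0.28 (adjusted p = 0.124), and the call, which held in 7 of 12 alternatives, was also lost without any 1 of the transgenic replicates and when only these 6 arrays were fitted. Ciita's other probe sets had −0.03 ± 0.13 at 1421210_at and −0.17 ± 0.18 at 1447075_at, which did not pass. Cd74, near the top of the scale at percentile 99.8 to 99.9 of all probe sets, differed by −0.05 ± 0.07 in each state. Its 95% interval was −0.19 to 0.09. H2-Eb1 had −0.22 ± 0.07 and H2-Oa had −0.26 ± 0.08 in unstimulated cells, neither of which passed (adjusted p = 0.0634 and 0.0750).

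Some neighbours of the members differed with the genotype as well. H2-Eb2 was lower in transgenic cells, with −0.85 ± 0.12 in stimulated and −0.86 ± 0.12 in unstimulated cells (adjusted p = 0.00187 and 0.000641). H2-Ea 1422891_at read 8.72, 8.88 and 9.46 in stimulated transgenic and 8.19, 8.30 and 8.34 in stimulated wild type cells, and 9.69, 9.69 and 9.62 in unstimulated transgenic and 8.85, 8.94 and 9.38 in unstimulated wild type cells. It was higher in transgenic cells in both states, by 0.74 ± 0.17 when stimulated and by 0.61 ± 0.17 when not (adjusted p = 0.0452 and 0.0404). Its other 2 probe sets did not pass, with 1.42 ± 0.52 in stimulated and 1.31 ± 0.52 in unstimulated cells at 1422892_s_at (adjusted p = 0.273 and 0.141), and −0.09 ± 0.09 in stimulated and 0.04 ± 0.09 in unstimulated cells at 1426202_at (adjusted p = 0.848 and 0.860). In the RefSeq order H2-Ab1, H2-Aa, H2-Eb1, H2-Eb2 and H2-Ea follow each other. Tap1 was lower in unstimulated transgenic cells, at −0.32 ± 0.08 (adjusted p = 0.0225).

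Among the assembly genes, 5 of 11 were higher and 0 lower in unstimulated transgenic than wild type cells: Cst3 by 1.15 ± 0.13, Ctsb by 0.85 ± 0.08, Ctsd by 0.69 ± 0.09, Marchf8 by 0.53 ± 0.09 and Ctsl by 0.50 ± 0.13. In stimulated cells 2 were higher, Ctsl by 0.71 ± 0.13 and Ctsd by 0.43 ± 0.09. Of all probe sets 4.47% were higher in unstimulated and 0.868% in stimulated transgenic cells. Marchf8 lay low on the unstimulated arrays, at percentile 16.9 of all probe sets in transgenic and 7.5 in wild type cells. Ctss had −0.0033 ± 0.07 in stimulated and 0.05 ± 0.07 in unstimulated cells, and Cd83 had −0.27 ± 0.07 in stimulated and 0.04 ± 0.07 in unstimulated cells, none of which passed. Markers of other cells moved with the genotype in the unstimulated cells. Of 12 monocyte and macrophage markers 11 were higher in transgenic cells (median 1.15), with a mean log2 level of 7.84 to 8.17 in transgenic and 6.62 to 6.86 in wild type arrays. Above the array median lay 10 of the 12 in transgenic and 7 in wild type cells. Of 5 erythroid markers 4 were higher (median 2.06), and of 8 T and NK cell markers 3. Of 8 dendritic cell markers 2 were higher, with 6.59 to 6.72 in transgenic and 6.26 to 6.39 in wild type arrays, and all 8 granulocyte markers were higher (median 3.48). In stimulated cells 3 of 12 monocyte and macrophage, 1 of 8 dendritic and 3 of 8 granulocyte markers were higher in transgenic cells. The part of these cells in the class II and assembly differences was not tested.

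Of the transcription genes, 1 of 16 differed in each state, where 0.868% of all probe sets were higher and 0.995% lower in stimulated transgenic cells. In unstimulated transgenic cells 4.47% were higher and 4.98% lower. Prdm1 was higher in stimulated transgenic cells by 0.82 ± 0.15 (adjusted p = 0.0117), with 8.81, 8.69 and 8.55 in transgenic and 7.92, 7.91 and 7.76 in wild type arrays, which do not overlap. In unstimulated cells Prdm1 had 0.27 ± 0.15, which did not pass (adjusted p = 0.290). Kdm1a, a histone demethylase, was lower in unstimulated transgenic cells, at −0.42 ± 0.11 (adjusted p = 0.0383). Rfx5 had −0.01 ± 0.10 in stimulated and −0.11 ± 0.10 in unstimulated cells, neither of which passed.

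Whether the response to stimulation differed between the genotypes was tested as an interaction, which 0 of the 22 probe sets passed (limma, adjusted p), where 0.575% of all probe sets passed with a more positive and 1% with a more negative change in transgenic cells. At an unadjusted p under 0.05 there were 4 of the 22, where 13.3% of all probe sets reached it. The nearest were H2-Aa 1443783_x_at at −0.77 ± 0.19 (adjusted p = 0.0654), the shared H2-Ob and Gm20506 probe set at 0.52 ± 0.16 (adjusted p = 0.139), H2-Oa at 0.30 ± 0.12 (adjusted p = 0.291) and H2-DMb2 1443686_at at −0.26 ± 0.11 (adjusted p = 0.356). The first was −0.05 on quantile-normalized values, and it passed without unstimulated wild type replicate 3, at −0.84 (adjusted p = 0.0410). Of the assembly genes, Ctsb and Cst3 changed more negatively in transgenic cells, with −0.63 ± 0.11 for Ctsb and −0.86 ± 0.18 for Cst3 (adjusted p = 0.0134 and 0.0316). So did 4 of 12 monocyte and macrophage, 8 of 8 granulocyte and 4 of 5 erythroid markers, while the macrophage scavenger receptor Marco changed more positively in transgenic cells, by 1.17 ± 0.22 (adjusted p = 0.0192). The part of these cells in this was not tested.

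Some class II probe sets stood apart on the arrays at the ends of the actin 5′ to 3′ reading. H2-DMb2 1419744_at read 10.07 in unstimulated wild type replicate 1, where that reading was lowest, and 11.58 in both other replicates. In stimulated transgenic replicate 3, where it was highest, the same probe set lay 0.86 above the mean of replicates 1 and 2. It also read 11.06, 11.59 and 10.87 in unstimulated transgenic cells, where the actin reading was −0.63 to −0.54. The shared H2-DMb 1449580_s_at stood apart on the same arrays, with 11.02 in that wild type array and 11.92 and 11.96 in the others, and it lay 0.73 above in stimulated transgenic replicate 3. H2-DMb2 1443686_at and H2-Eb1 lay 0.09 and 0.12 above in that array. The part of RNA quality in the differences at these probe sets was not tested.

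**Figure D5:**
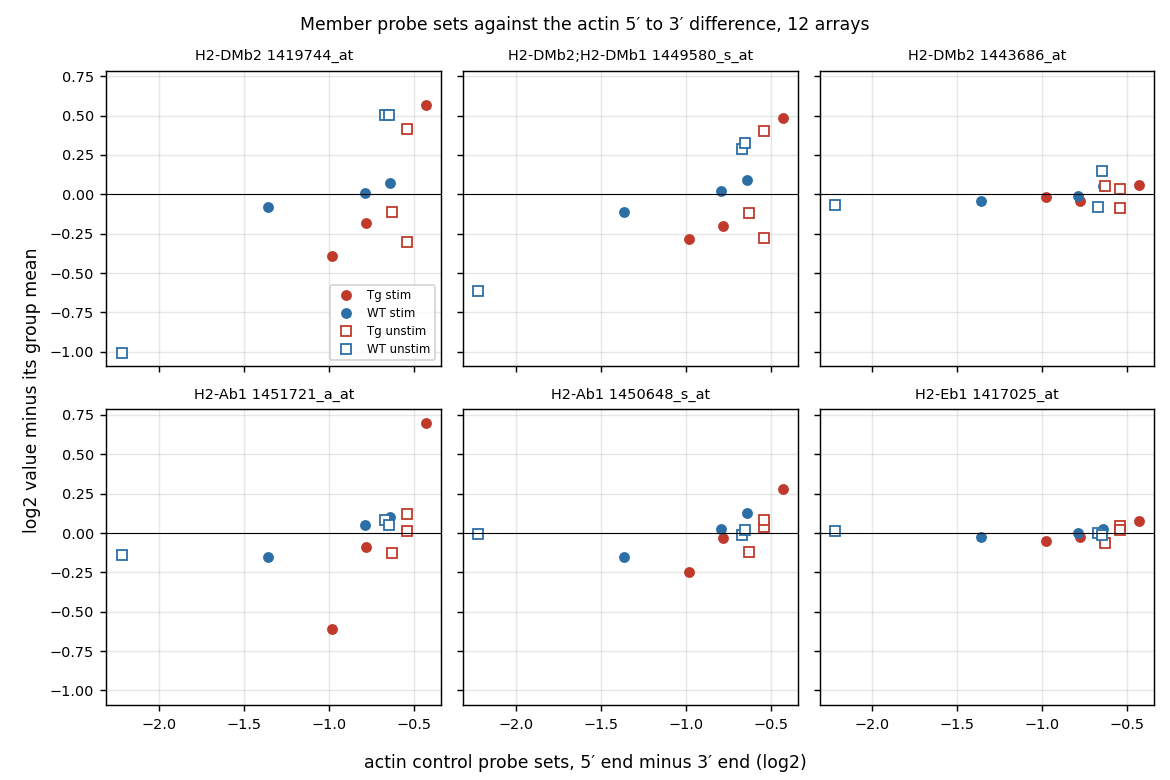
Each array's deposited log2 value minus its group mean (vertical axis) against its actin control reading, 5′ end minus 3′ end in log2 units (horizontal axis), at 6 class II probe sets, with red for transgenic, blue for wild type, circles for stimulated and squares for unstimulated cells. H2-DMb2 1419744_at, the shared 1449580_s_at and H2-Ab1 1451721_a_at spread widely, and H2-DMb2 1443686_at and H2-Eb1 stay near 0 on all 12 arrays.

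The genes whose quantile-normalized values ran most like those of Ciita and Cd74 over the 12 arrays were sought among 11336 genes outside the members. For Ciita 1421210_at they were Fmnl1 (Pearson r = 0.974), Tmod3 (0.962), A330009N23Rik (0.957), Atp6v0b (0.957) and Stap1 (0.956). For Cd74 they were Phxr4 (0.996), Sipa1 (0.994), Lrsam1 (0.994), Prkcd (0.993) and Cd72 (0.992). The 12 arrays fall into the stimulated and unstimulated sets, a step that all these genes share, and the values are given as a description.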

How the data were processed

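RNA of splenic B cells from 12 samples in 4 groups was measured on Affymetrix mouse arrays from 4 µg of total RNA. Per the submitters' processing notes the authors used RMA from affy, with no version named, and what they deposited is 1 log2 value per probe set and array. The table holds 45101 probe sets, and after removal of 64 array controls the other 45037 were fitted with limma 3.58.1 in R 4.3.3 over the 12 arrays, with 1 coefficient per group, the same prior variance for all probe sets and Benjamini-Hochberg adjustment over all of them. An adjusted p under 0.05 passed. Genotype contrasts used the deposited values. Stimulation contrasts used values quantile-normalized over the 12 arrays. Precision is limited by the 3 arrays a group. The fit was tested on simulated data.

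The members, gene lists and tests were chosen with earlier results of these data known. Lists were counted on the brightest probe set of each single symbol, and at most 4 genes that passed with the largest change were named per list and contrast, beside H2-Ea, Rfx5, Ctss, Prdm1 and Cd83. Psmb8, Tap2, Brd2, Nfya, Nfyb, Nfyc, Marchf8 for stimulation, Ctsl for unstimulated genotypes, Blnk, Marco, Batf3, Zbtb46 and Cd8a were named after their values were seen. Some listed genes are not reported here.

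Replicates with the same number deviated together from their group means in the stimulated genotypes (r = 0.330, 0.101 and 0.178 for numbers 1, 2 and 3) and in wild type stimulation (0.318, 0.175 and 0.190). In unstimulated genotypes r was 0.078, 0.070 and 0.297, and in transgenic stimulation 0.069, −0.160 and 0.115. Replicate 1 also had the lowest actin 5′ to 3′ reading of each group, and number 3 a low Eif2s3y value. Whether the animals were paired was not tested. The labels name no pairing, and the model without the block was kept. The log2 value of the Y-linked gene Eif2s3y lay between 3.26 and 3.66 in the 4 arrays numbered 3, against 5.76 to 6.61 for the other numbers, and its part where replicate 3 stands apart was not tested. Promoter sequences are from RefSeq, GRCm38.p6.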

Additional observations from a re-analysis of the deposited data

How the results depend on the processing

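The number of class II probe sets that passed was recomputed under each alternative. The share of all probe sets that passed is given above for the main settings. For stimulation it is also given on deposited values and after median subtraction. It is not given for the other alternatives, so a shift in these counts is not read as particular to class II. Between the stimulated genotypes it was 3, and 2 with quantile normalization, 3 after median subtraction, 3 with a mean log2 of at least 6, 3 with a trend prior, 1 with only the 6 arrays compared, and 1 to 4 when 1 array was left out (1 without transgenic replicate 1, and 4 without transgenic replicate 3, of which 1 was shared). Between the unstimulated genotypes it was 4, and 5 with quantile normalization, 7 after median subtraction, 5 with the filter, 8 with a trend prior, 5 with 6 arrays, and 3 to 4 with 1 array left out. For stimulation in transgenic cells it was 21, and 21 on deposited values, 14 after median subtraction (13 lower and 1 higher), 20 with the filter, and 19 to 21 with 1 array left out. For stimulation in wild type cells it was 19, and 20 on deposited values, 15 after median subtraction (14 lower and 1 higher), 18 with the filter, and 18 to 20 with 1 array left out. The interaction gave 0 throughout, except for 1 without unstimulated wild type replicate 3. The filter left out Ciita 1447075_at, which had passed for stimulation in both genotypes. Beyond that, the cause of these shifts was not tested.

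With the replicate number as a block the counts were 4 and 6 between the stimulated and unstimulated genotypes, 21 and 19 for stimulation in transgenic and wild type cells, and 0 for the interaction. In that fit H2-Ab1 1450648_s_at passed in both states and H2-Aa 1438858_x_at in unstimulated cells, and the block changed no other call.

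Signs were compared between the main setting and each alternative. Where a value passed in 1 of these, the sign turned for H2-DMa 1459872_x_at on deposited values. Its stimulation change there was −0.36 in transgenic and −0.29 in wild type cells and passed. After median subtraction the sign turned for Cd74 (0.15 in transgenic and 0.127 in wild type cells) and for H2-Eb1 in transgenic cells (0.16), which did not pass. Of 1425 values under an alternative, another 41 turned sign without passing in either setting. Ciita 1421211_a_at in wild type cells after median subtraction (0.05) is among these, though its stimulation change passed on deposited values at −0.57.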

Other observations

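Beside the B cell markers, those of other cells also fell with stimulation, where 25.1% of all probe sets fell in transgenic and 26.1% in wild type cells. In transgenic cells 11 of 12 monocyte and macrophage markers, 8 of 8 granulocyte, 4 of 5 erythroid, 5 of 8 T and NK cell and 4 of 8 dendritic cell markers fell, while the macrophage scavenger receptor Marco rose by 3.03 and the dendritic cell factor Batf3 by 2.05 on the log2 scale. In wild type cells 7 of 12 monocyte and macrophage markers, 4 of 8 granulocyte, 3 of 5 erythroid, 4 of 8 T and NK cell and 4 of 8 dendritic cell markers fell, while Marco rose by 1.93, Batf3 by 1.85, the dendritic cell factor Zbtb46 by 0.35 and the T cell coreceptor gene Cd8a by 0.64. On the deposited values Zbtb46 was −0.26 and Cd8a 0.05 in wild type cells, and neither passed. The counts that fell moved with the scaling. In the order above they were 11, 8, 5, 7 and 7 in transgenic cells on the deposited values. In wild type cells they were then 11, 7, 5, 7 and 6, where 64.9% of all probe sets fell in transgenic and 64.8% in wild type cells. After median subtraction they were 11, 8, 4, 5 and 4 in transgenic and 6, 4, 2, 4 and 4 in wild type cells. Plasma cell markers fell at 3 of 7 and rose at 2 in transgenic cells, and fell at 3 and rose at 3 in wild type cells. Between the genotypes 4 of 7 plasma cell markers were higher in stimulated and 5 of 7 in unstimulated transgenic cells, and Cr2, a complement receptor of B cells, was higher by 0.53 ± 0.07 in stimulated and by 0.29 ± 0.07 in unstimulated transgenic cells (limma, adjusted p = 0.00138 and 0.0230).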
